A study of Homo sapiens with 12 samples.

Results

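Mitochondrial ribosomal proteins are made from nuclear genes, translated by cytosolic ribosomes and imported into mitochondria, where they join ribosomal RNAs of the mitochondrial genome. The mitochondrial ribosome has a large subunit, whose proteins carry the symbols MRPL, and a small subunit, whose proteins carry the symbols MRPS, and it translates the few mRNAs of the mitochondrial genome, which encode subunits of the respiratory chain and of ATP synthase. The large subunit holds the site of peptide bond formation and the exit tunnel, and the small subunit holds the decoding centre. The genes described here are those whose symbol in both deposited tables is MRPL or MRPS followed by a number and at most a single letter. There were 76 of them, 47 MRPL and 29 MRPS, of 23284 symbols in the table of the first experiment and 12421 in that of the knockout experiment. The symbol alone decided which genes belong, though the set was chosen with earlier results of these data known. All 76 passed the filter on low values in both tables, among 9464 and 12254 genes tested.

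HEK293 is a human line of embryonic kidney origin, and RNA from its polysome fractions was sequenced in 12 libraries that form 6 groups of 2. In the first experiment the cells received a STING plasmid or the empty vector; STING relays the sensing of DNA in the cytosol, and the tables call it TMEM173. In the knockout experiment, PERK knockout cells with STING, PERK knockout cells with vector, wild-type cells with STING and wild-type cells with vector were profiled, PERK (EIF2AK3) being the eIF2alpha kinase that senses stress in the endoplasmic reticulum. All groups were transfected with 5 ug of plasmid and collected at 24 h. The labels do not say which clone or clones the PERK knockout cells came from, nor whether replicates came from different cultures, and p-values therefore reflect a spread between libraries that may be only technical. Levels are FPKM, fragments per length of transcript and per number of mapped fragments, so levels of different genes can be set side by side within a table. Total RNA was not analysed here, and a lower level in the polysome fraction can come from less of an RNA or from its lighter loading with ribosomes, which cannot be told apart.

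The transfection showed in the level of TMEM173, which averaged 67205 ± 2896 FPKM with STING and 14.4 ± 0.836 FPKM with vector in the first experiment (SD, n = 2 each). In PERK knockout cells it averaged 8925 ± 2244 FPKM with STING and 33.6 ± 14.4 FPKM with vector, and in wild-type cells 41236 ± 815 FPKM with STING and 29.9 ± 9.55 FPKM with vector. Less STING RNA was thus present in the knockout than in the wild-type STING libraries, and each comparison of STING effects between the genotypes carries that difference. EIF2AK3 stood at the floor of 1 in all 4 wild-type libraries, so its level cannot check the knockout label. Of 5 markers of HEK293 cells, 3 were above 1 FPKM in some library of the first experiment and 5 were in the other. The highest value of these markers in the first experiment was 5.57 FPKM, below the highest of 8 haematopoietic markers, 7.35 FPKM. The summed level of the haematopoietic markers was 3.60 to 4.49 FPKM with STING and 7.44 to 9.96 FPKM with vector there. Of the 8, 5 were at 0 in every library. The sum of 6 hepatocyte markers was 1.41 to 1.70 FPKM with STING and 2.43 to 4.72 FPKM with vector. The part of these markers in the results was not tested.

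The levels of the mitochondrial ribosomal proteins spanned more than 2 orders of magnitude. MRPL55 was the highest of the MRPL in both tables, with 1495 and 1344 FPKM with STING and 2892 and 2374 FPKM with vector in the first experiment. MRPL12, the counterpart of the bacterial stalk protein L7/L12 that has also been described as a binding partner of mitochondrial RNA polymerase, and MRPL41 followed in the first experiment, with means over its 4 libraries of 860 and 762 FPKM. MRPL51 and MRPL33 followed in the knockout experiment, with means over its 8 libraries of 659 and 627 FPKM. Among the MRPS, MRPS24 (1407 FPKM), MRPS21 (767 FPKM) and MRPS26 (604 FPKM) led the first experiment. MRPS21 (1082 FPKM), MRPS24 (680 FPKM) and MRPS34 (356 FPKM) led the knockout experiment. The leading 2 of the MRPS thus changed places between the tables, which were made separately and share no scale.

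At the low end, MRPL19 averaged 4.76 FPKM in the first experiment and 5.60 FPKM in the knockout experiment, the lowest level of all 76 in each. MRPL30 averaged 8.35 FPKM in the first experiment, and MRPL35 24.6 FPKM. MRPS25 averaged 9.68, MRPS31 17.6 and MRPS9 18.4 FPKM there. In the knockout experiment MRPL30 averaged 11.6 FPKM and MRPL44, a protein with a fold like that of a double-strand ribonuclease, 17.7 FPKM. MRPS31, MRPS25 and MRPS35 closed the order of the MRPS in that experiment, with 15.6, 19.7 and 33.1 FPKM. Within MRPS31 the 8 values ran between 4.60 and 31.3 FPKM, so its place among these neighbours lay within its own spread.

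The first comparison asks which RNAs of the polysome fraction change when STING is expressed. In the first experiment 19 of the 76 mitochondrial ribosomal proteins fell with STING and 0 rose at a limma adjusted p under 0.05. Of all genes tested, 9.29% fell and 2.51% rose by the same rule. The background depends on level, however, and most members are abundant: 58 of them had a mean of at least 50 FPKM. Of 1611 genes at that level 32.3% fell, and of the 58 members at that level 19, so the share that fell was near that of other abundant genes. Of the 76 log2 changes 58 were below 0, with a median of -0.25 against -0.05 for all genes tested. The medians of genes averaging 50 FPKM or more were -0.32 for the members and -0.32 for all. At an unadjusted p under 0.05, 33 members were lower and 1 higher, against 18.9% and 8.82% of all genes tested, and of the 58 abundant members 32 were lower, against 49.7% of genes at that level. Without STING library 2 the 33 became 19. With quantile normalization the members' median turned to 0.06, 35 of 76 log2 changes were below 0 and 8 members were lower at an unadjusted p under 0.05. With median-of-ratios scaling, which puts the median change of all genes near 0, these values were -0.20, 55 and 26. As deposited, the summed level of all genes was 2159857 and 2110173 FPKM with STING, against 2801937 and 2508731 FPKM with vector. The members made up 0.736% and 0.751% of that sum with STING, against 0.779% and 0.861% with vector. A fall in FPKM is thus not a fall in share of the sum, and the part of these sums in the falls was not tested.

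Several large-subunit proteins showed the clearest separation. MRPL40, a protein of the large subunit whose gene lies in the chromosomal region deleted in DiGeorge syndrome, had 202 and 215 FPKM with STING, against 466 and 416 FPKM with vector. Both STING values lay below both vector values, and the log2 change was -1.07 (SE 0.11, limma adjusted p = 0.0018). MRPL20 had 311 and 241 FPKM with STING, against 517 and 505 FPKM with vector (log2 change -0.90, SE 0.14, limma adjusted p = 0.0063). MRPL55, the most abundant member, fell by 0.89 on the log2 scale (SE 0.12, limma adjusted p = 0.0051) with the values given above. MRPL11, the counterpart of the bacterial protein L11 at the base of the stalk, had 139 and 153 FPKM with STING, against 259 and 261 FPKM with vector. Its log2 change was -0.83 (SE 0.11, limma adjusted p = 0.0045), and the vector values lay within 2 FPKM of each other.

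MRPS18A is an MRPS by its symbol only, since structures of the mitochondrial ribosome place it in the large subunit. It had 206 and 227 FPKM with STING, against 360 and 384 FPKM with vector (log2 change -0.78, SE 0.11, limma adjusted p = 0.0052). MRPS11, the counterpart of bacterial S11, had 151 and 158 FPKM with STING, against 241 and 255 FPKM with vector (log2 change -0.68, SE 0.11, limma adjusted p = 0.0078). MRPL17 had 53.2 and 50.8 FPKM with STING, against 89.1 and 78.5 FPKM with vector, and it was the least abundant of the members that fell (log2 change -0.68, limma adjusted p = 0.0191). MRPL52 had 345 and 334 FPKM with STING, against 587 and 497 FPKM with vector (log2 change -0.67, limma adjusted p = 0.0104). In these genes the groups did not overlap.

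**Figure D1:**
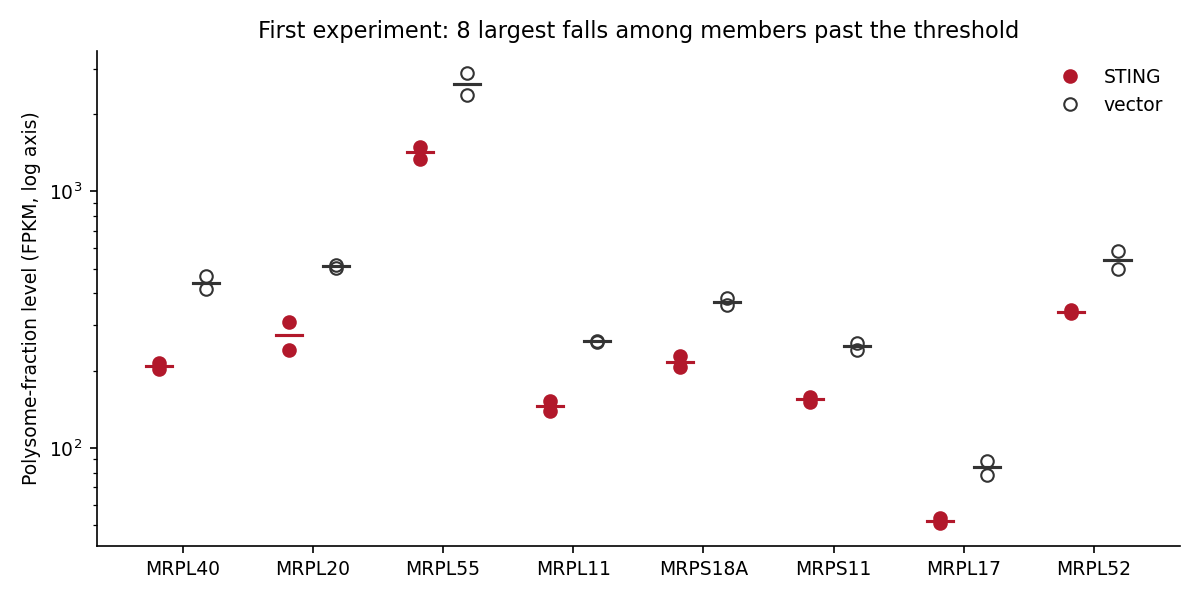
Levels in FPKM (log axis) of the 8 mitochondrial ribosomal proteins with the largest falls past the threshold in the first experiment, with 2 STING libraries (filled) and 2 vector libraries (open) per gene and the group means as bars. Both STING values of MRPL40, 202 and 215 FPKM, lie below both of its vector values, 466 and 416 FPKM, and the groups are likewise apart in the other genes.

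MRPL12 had 648 and 681 FPKM with STING, against 995 and 1118 FPKM with vector (log2 change -0.67, SE 0.10, limma adjusted p = 0.0075). MRPS12, the counterpart of bacterial S12 in the decoding centre, had 343 and 330 FPKM with STING, against 495 and 497 FPKM with vector (log2 change -0.56, SE 0.10, limma adjusted p = 0.0111). Exons of MRPS12 overlap exons of SARS2 on the opposite strand, and the library method does not mark strand, so reads of the pair may have been counted together. The other 9 members that fell were MRPL21, MRPL28, MRPL32, MRPL37, MRPL41, MRPL43, MRPS7, MRPS15 and MRPS24, with log2 changes between -0.60 and -0.48. Exons of at least 15 of the 76 members overlap an exon of another gene tested in this experiment. Neighbours were matched by their GENCODE 29 symbol, so a neighbour tested under an older symbol would be missed. Among the members that fell were MRPL28 with TMEM8A, MRPL32 with PSMA2, MRPL37 with SSBP3, and MRPS7 with GGA3 and MIF4GD. MRPS24 shares up to 425 bases of an exon with URGCP-MRPS24 on the same strand.

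No call among these 19 held when either STING library was left out: 0 members passed without STING library 1 and 0 without STING library 2. The smallest limma adjusted p of a member was then 0.103 and 0.113. Without vector library 1 there were 14 calls, 14 of them among the 19, and without vector library 2 there were 14, 13 of them among the 19. With quantile normalization 3 of the 19, MRPL11, MRPL40 and MRPL55, still fell, while MRPL14 and MRPL50 rose, and without the intensity trend and robust estimation 0 passed.

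Apart from MRPS18A, the genes followed for a role in disease or for a place in the ribosome that the symbol does not tell did not pass in the first experiment. MRPS16 and MRPS22, small-subunit proteins mutated in inherited defects of the respiratory chain, had log2 changes of -0.29 and -0.28 (limma adjusted p = 0.154 and 0.312). MRPL3 and MRPL44, large-subunit proteins mutated in infantile cardiomyopathies, had log2 changes of 0.23 and 0.20 (limma adjusted p = 0.375 and 0.514). MRPS18B and MRPS18C, the other forms of the protein S18 beside MRPS18A, had 226 and 244 FPKM with STING against 239 and 253 FPKM with vector, and 88.2 and 90.2 FPKM with STING against 89.5 and 68.1 FPKM with vector. The difference between MRPS18A and these other forms was not tested. MRPS30, which structures place in the large subunit, had 40.0 and 48.2 FPKM with STING, against 41.7 and 48.8 FPKM with vector. MRPS36, now known as a component of the oxoglutarate dehydrogenase complex rather than of the ribosome, had 25.2 and 31.9 FPKM with STING, against 23.4 and 28.6 FPKM with vector. MRPL50 had the largest positive log2 change, 0.45, with 49.1 and 42.7 FPKM with STING and 30.5 and 36.3 FPKM with vector (limma adjusted p = 0.124).

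By subunit, 13 of 47 MRPL and 6 of 29 MRPS fell in the first experiment, with median log2 changes of -0.27 and -0.20. With the subunit taken from structure instead of the symbol, 14 of 49 large-subunit and 5 of 26 small-subunit proteins fell, and the medians were -0.27 and -0.21. Among members averaging 50 FPKM or more the difference of the MRPL and MRPS medians was 0.01, so the medians of the subunits lay together at that level. The groups did not overlap and STING was lower in 45 of 76 members, a form that 32.8% of all genes and 62.4% of genes with a mean of at least 50 FPKM showed. STING was higher without overlap in 7 members, against 24.2% of all genes.

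The change in the first experiment varied with the level of the member and with the length of its transcript. Across the 76 members the log2 change had a Spearman correlation of -0.58 with mean level and of 0.34 with transcript length, and length and level were themselves correlated at -0.62. Of the 26 members with the shortest transcripts 9 fell, of the 25 in the middle 7, and of the 25 longest 3. Their median levels were 280, 145 and 45.5 FPKM in the same order. In all genes tested the correlation of the change with level was -0.23, and with transcript length, where known, 0.24. In the knockout experiment the members' correlations with level and with length were -0.24 and 0.17 in knockout cells, and -0.015 and -0.0087 in wild-type cells. Those of all genes tested were -0.33 and 0.15 in knockout cells, and -0.40 and -0.00089 in wild-type cells. These correlations across genes of the same libraries are descriptions, and the parts of length and level in the falls were not tested.

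**Figure D2:**
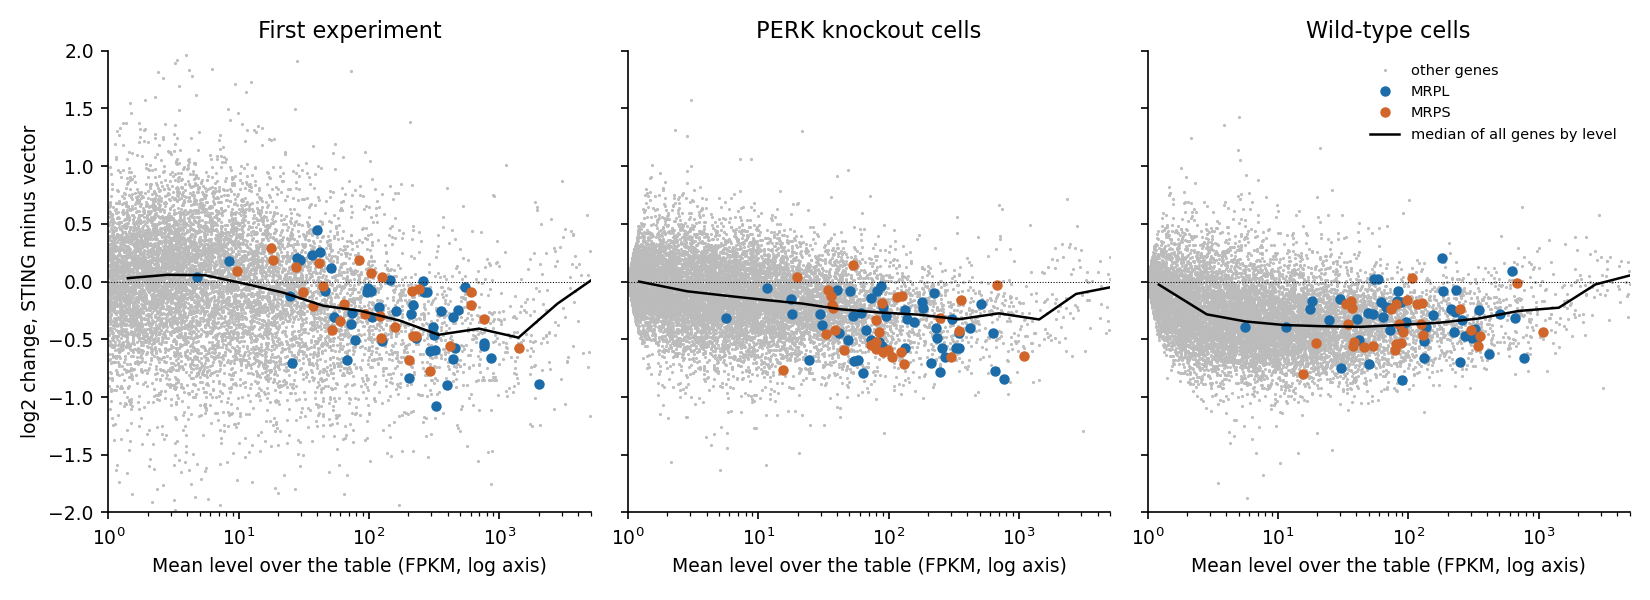
Change with STING (log2, STING minus vector) against the mean level of each gene over its table (FPKM, log axis) in the first experiment, PERK knockout cells and wild-type cells, with MRPL and MRPS as coloured points, other genes in grey and the median of all genes by level as a line. In the first experiment the line runs below 0 for abundant genes, and the members scatter about it.

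The same values were taken for subunits of respiratory complex I and for cytosolic ribosomal proteins. The 37 subunits of respiratory complex I followed here are nuclear-encoded partners of the proteins that the mitochondrial ribosome makes. Of these, 18 fell and 1 rose in the first experiment, against 9.29% and 2.51% of all genes tested. Most are abundant, with a median level of 358 and 310 FPKM with STING and 483 and 414 FPKM with vector. Of genes with a mean of at least 50 FPKM 32.3% fell, with a median log2 change of -0.32. The median log2 change of the complex I subunits was -0.50. Of 78 cytosolic ribosomal proteins, which are more abundant still, 0 fell and 9 rose, with a median log2 change of 0.12. The medians stood at -0.28 in knockout cells and -0.31 in wild-type cells for complex I, and at 0.01 and 0.07 for cytosolic ribosomal proteins. Without STING library 1 or without STING library 2 neither group had a call. Without vector library 1, 12 complex I subunits fell and 8 cytosolic ribosomal proteins rose, and without vector library 2, 20 complex I subunits fell and 4 cytosolic ribosomal proteins rose. No test of the difference between these groups of genes was made.

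**Figure D3:**
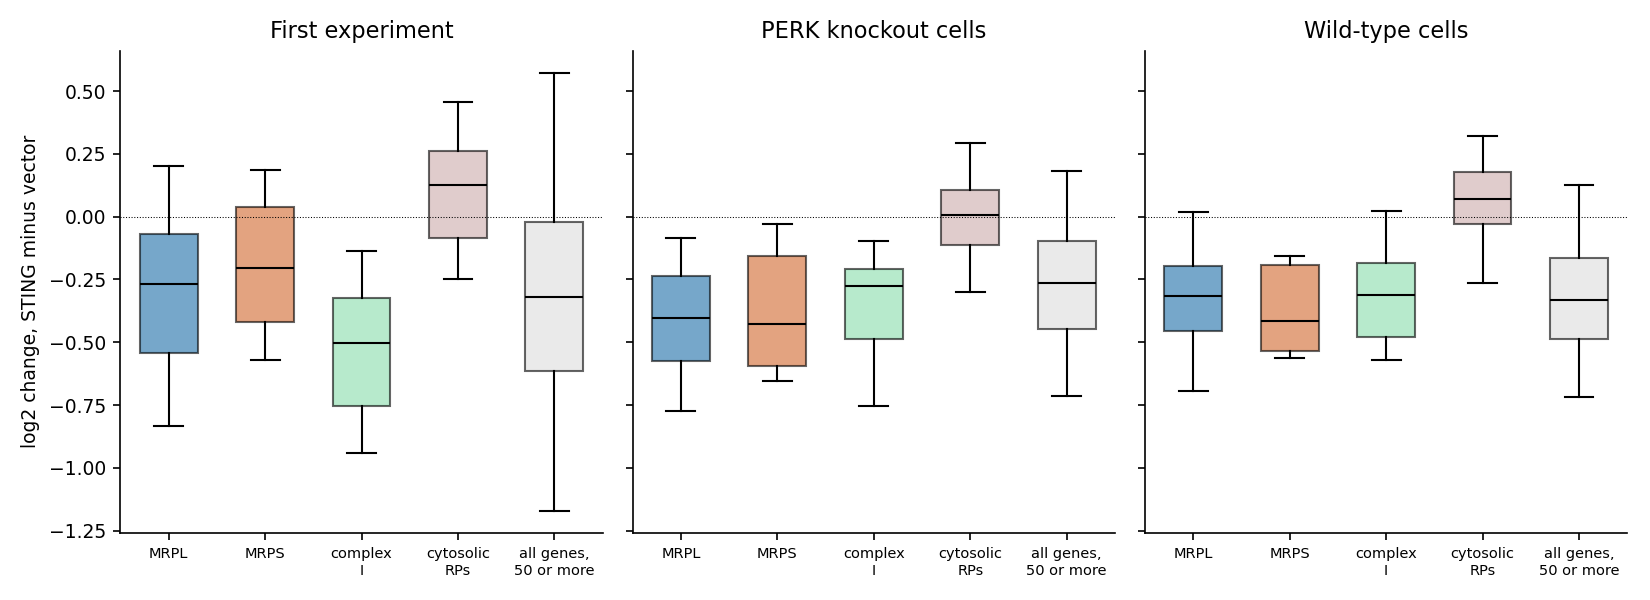
Change with STING (log2, STING minus vector) of MRPL, MRPS, subunits of complex I, cytosolic ribosomal proteins (RPs) and all genes with a mean of at least 50 FPKM, in the first experiment, PERK knockout cells and wild-type cells. Boxes span the quartiles with the median as a line, and whiskers reach the 5th and 95th percentiles of the genes; the medians of the MRPL are -0.27, -0.40 and -0.31 in these panels.

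Proteins of the mitochondrial ribosome outside the symbol pattern were followed by name. MRP63, a large-subunit protein, had 89.1 and 87.0 FPKM with STING, against 151 and 131 FPKM with vector, and fell in the first experiment (log2 change -0.67, SE 0.13, limma adjusted p = 0.0142). It was the only call among 7 such proteins. AURKAIP1 (log2 change -0.38), ICT1 (-0.32), CHCHD1 (-0.14), PTCD3 (-0.11), GADD45GIP1 (0.13) and DAP3, a small-subunit GTP-binding protein (0.35), did not pass. GADD45GIP1 had 878 and 1107 FPKM with STING, against 577 and 1403 FPKM with vector, so its vector values enclosed the STING values.

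The factors that build and serve the mitochondrial ribosome were taken as 3 lists in the first experiment, where 9.29% of all genes tested fell and 2.51% rose. Of 23 genes of ribosome assembly and rRNA modification 1 fell, the GTPase MTG1, with 22.8 and 26.1 FPKM with STING against 41.8 and 48.5 FPKM with vector (log2 change -0.86, limma adjusted p = 0.0161). Of 15 mitochondrial translation factors 1 fell, TUFM, the elongation factor that delivers aminoacyl-tRNA, with a log2 change of -0.40 (limma adjusted p = 0.0421). Of 17 other genes of mitochondrial gene expression 1 fell, HSD17B10, a subunit of mitochondrial ribonuclease P, with a log2 change of -0.49 (limma adjusted p = 0.0229). None of the 3 lists had a gene that rose. Their median log2 changes were -0.04, -0.04 and 0.18. Without either STING library MRP63, MTG1, TUFM and HSD17B10 did not pass, with limma adjusted p between 0.156 and 0.295. Without vector library 1 MRP63 (0.0518) and TUFM (0.0754) did not pass, and without vector library 2 MTG1 (0.0666), TUFM (0.121) and HSD17B10 (0.0837) did not.

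Promoters of the members are shown because ETS family factors such as GABPA, and YY1, are known regulators of nuclear genes for mitochondrial proteins. RefSeq promoters of build GRCh38.p14, from 250 bases before to 50 after the listed start, were matched by symbol for 67 of the 76 members, 40 MRPL and 27 MRPS. The 120 bases before the start of 4 members that fell in the first experiment follow in their own orientation, with matches to CCGGAAG (ETS family) or AAGATGGC (YY1), on either strand, in capitals. The 4 were chosen because they hold a match: of the 8 members with the largest falls, MRPL55, MRPL11, MRPS11 and MRPL17 have neither motif in the same 120 bases. MRPL17 does hold 3 matches to the NRF1 motif there, which was not used for this choice. The windows shown lie at chr22:19432425-19432544 on the plus strand for MRPL40, chr1:1407294-1407413 on the minus strand for MRPL20, chr6:43687792-43687911 on the minus strand for MRPS18A and chr14:22829767-22829886 on the plus strand for MRPL52.
MRPL40: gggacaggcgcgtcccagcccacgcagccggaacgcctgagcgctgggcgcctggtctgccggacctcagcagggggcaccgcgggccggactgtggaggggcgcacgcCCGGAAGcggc
MRPL20: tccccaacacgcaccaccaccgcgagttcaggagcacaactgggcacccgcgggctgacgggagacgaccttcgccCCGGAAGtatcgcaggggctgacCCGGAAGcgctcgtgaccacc
MRPS18A: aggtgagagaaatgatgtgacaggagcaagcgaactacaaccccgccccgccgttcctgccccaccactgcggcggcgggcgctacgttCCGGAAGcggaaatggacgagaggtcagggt
MRPL52: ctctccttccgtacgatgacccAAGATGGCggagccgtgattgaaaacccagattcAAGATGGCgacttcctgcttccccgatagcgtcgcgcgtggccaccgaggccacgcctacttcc

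Over the whole promoter window, CCGGAAG was found in 28 of the 67 members, or 41.8%, against 34.4% of cytosolic ribosomal proteins, 21.4% of genes tested in the first experiment and 10.7% of all promoters. AAGATGGC was found in 20 of the 67, or 29.9%, against 9.38% of cytosolic ribosomal proteins, 6.59% of genes tested and 3.03% of all promoters. GCATGCGC, letters of the NRF1 motif, was found in 8.96% of the members and 6.35% of genes tested. CACGTG, the E-box, was found in 8.96% of the members and 10.8% of genes tested, and TGATGNAA, of the amino acid response element of ATF4, in 1.49% and 1.57%. Of the 18 members with a promoter that fell in the first experiment, 7 held AAGATGGC and 7 held CCGGAAG, and of the 49 that did not pass, 13 and 21. GCATGCGC was held by 3 of the 18 and 3 of the 49, CACGTG by 1 and 5, and TGATGNAA by 1 and 0. A match describes the letters of a window and is neither a binding site nor a cause.

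The start of the transcript sets mitochondrial apart from many cytosolic ribosomal protein genes. mRNAs of cytosolic ribosomal proteins are known for a run of pyrimidines at their very start, through which their translation responds to growth signals. The 30 bases around the RefSeq start, 15 before and 15 after, are shown for 3 members and 3 cytosolic ribosomal proteins. These had the highest mean levels in the first experiment among the genes that could be chosen. Genes without a listed promoter, or on a chromosome left out of the display, could not be. More abundant cytosolic ribosomal proteins may thus be missing. The windows shown have the first 5 transcribed bases in capitals. In GRCh38.p14 they lie at chr1:228109285-228109314 (minus strand, MRPL55), chr7:43869503-43869532 (minus, MRPS24), chr17:81703352-81703381 (plus, MRPL12), chr19:1438381-1438410 (plus, RPS15), chr15:69452803-69452832 (plus, RPLP1) and chr12:56116618-56116647 (plus, RPL41).
MRPL55: gacgcagcgcctgccAGTGAcgtcgtgggc
MRPS24: cgcgctgtggtacgtCCCGCgctccgcttg
MRPL12: aggtacggctagagcGTCATttccggctcg
RPS15: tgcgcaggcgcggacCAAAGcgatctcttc
RPLP1: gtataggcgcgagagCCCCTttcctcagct
RPL41: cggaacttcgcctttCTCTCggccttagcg

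A C followed by 4 pyrimidines stood at the listed start in 5 of the 67 members, or 7.46%, against 42 of 64 cytosolic ribosomal proteins, or 65.6%, and 6.05% of genes tested. Within 5 bases of the listed start the shares were 22.4%, 78.1% and 23.0%. Of the 18 members that fell in the first experiment 0 had it at the listed start and 4 within 5 bases. Of the 49 that did not pass, 5 and 11 did. By these letters the members resembled the genes tested as a whole, while the cytosolic ribosomal proteins stood apart; RefSeq starts need not be the starts used in these cells.

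The next comparison asks whether the STING response of these genes differs between PERK knockout and wild-type cells. In PERK knockout cells 0 of 76 members passed with limma in either direction, against 0% lower and 0.00816% higher among all genes, TMEM173 being the only gene called. At an unadjusted p under 0.05, 29 members were lower and 0 higher, against 6.64% and 1.06% of all genes. Of the 76 log2 changes 74 were below 0, with a median of -0.41 for the members and -0.11 for all genes. For genes averaging 50 FPKM or more the medians were -0.44 and -0.27, and 26 of 57 members at that level were lower at an unadjusted p under 0.05, against 18.4% of genes. The MRPL and MRPS medians were -0.40 and -0.43.

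The 6 members with the smallest p in knockout cells did not pass, and their groups did not overlap. MRPL27, the counterpart of bacterial L27 near the site of peptide bond formation, had 123 and 123 FPKM with STING, against 196 and 206 FPKM with vector (log2 change -0.70, SE 0.16, limma adjusted p = 0.452). MRPL51 had 431 and 368 FPKM with STING, against 683 and 680 FPKM with vector. MRPL18, a protein of the central protuberance of the large subunit, had 101 and 112 FPKM with STING, against 164 and 205 FPKM with vector. These large-subunit genes were joined by MRPS33 with 211 and 199 FPKM with STING against 320 and 325 FPKM with vector, and by MRPS12 with 82.4 and 99.9 FPKM with STING against 142 and 157 FPKM with vector. MRPL22, the counterpart of a bacterial protein that lines the exit tunnel, had 34.3 and 33.0 FPKM with STING, against 60.2 and 49.6 FPKM with vector. Their limma adjusted p lay between 0.452 and 0.470.

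In wild-type cells 0 of 76 members passed with limma, against 0% lower and 0.00816% higher among all genes, TMEM173 again being the gene called. At an unadjusted p under 0.05, 18 members were lower and 0 higher, against 12.4% and 0.441% of all genes. Of the 76 log2 changes 71 were below 0, with a median of -0.34 for the members and -0.27 for all genes, and with medians of -0.33 and -0.33 for genes averaging 50 FPKM or more. Of the 57 members at that level 16 were lower at an unadjusted p under 0.05, against 19.2% of genes. The MRPL and MRPS medians were -0.31 and -0.42. STING was lower than vector without overlap in 50 members, a form that 52.3% of all genes showed, and higher without overlap in 1, against 3.31%. Of the 57 abundant members 35 were lower in this way, against 66.1% of genes at that level. In knockout cells the counts were 43 lower members, against 21.9% of all genes, and 0 higher, against 5.66%. There 39 of the 57 abundant members were lower, against 42.3% of genes at that level.

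MRPL18 had the smallest p in wild-type cells, with 295 and 244 FPKM with STING against 444 and 426 FPKM with vector (log2 change -0.69, SE 0.19, limma adjusted p = 0.384). MRPL28 had 112 and 119 FPKM with STING, against 192 and 175 FPKM with vector. MRPL24 had 61.9 and 45.3 FPKM with STING, against 101 and 92.0 FPKM with vector. These 3, all of the large subunit, were followed by MRPL9 with 110 and 128 FPKM with STING against 172 and 167 FPKM with vector, and by MRPL12 with 363 and 307 FPKM with STING against 603 and 440 FPKM with vector. MRPS5, the counterpart of bacterial S5, had 43.7 and 43.3 FPKM with STING, against 63.3 and 65.8 FPKM with vector. None passed, and each had a limma adjusted p of 0.384.

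These values moved with the scaling. With median-of-ratios scaling the median of the members was -0.22 in knockout cells and 0.04 in wild-type cells, and 59 and 34 of 76 log2 changes were below 0. With quantile normalization the medians were -0.15 and 0.01. The median of all genes moved by over 0.1 between scalings, standing at -0.27 in wild-type cells with the values as deposited and at 0 with quantile normalization. Relative to the median of all genes as deposited, the members' median lay at -0.30 in knockout cells and -0.08 in wild-type cells. The 29 members lower at an unadjusted p under 0.05 in knockout cells became 11 with median-of-ratios scaling and 11 with quantile normalization, and the 18 in wild-type cells became 0 and 3. In knockout cells there were 18 without knockout STING library 1, 14 without knockout vector library 2 and 19 without either wild-type STING library. In wild-type cells there were 5 without wild-type STING library 1, 3 without wild-type STING library 2 and 6 without wild-type vector library 1.

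Tested as a difference of differences, 0 of 76 members passed between knockout and wild-type cells with limma, and 0% of all genes (0 in either direction). At an unadjusted p under 0.05 the STING effect of 1 member lay higher and of 2 lower in knockout cells, against 3.04% and 0.832% of all genes. The difference, knockout minus wild type, was below 0 for 43 members and above 0 for 33. The median difference was -0.06 for the members and 0.13 for all genes. It was -0.09 for the MRPL and -0.01 for the MRPS. With median-of-ratios scaling the members' median difference was -0.27 and 60 members were below 0, and with quantile normalization -0.15 and 55. Leaving out 1 library gave medians between -0.17 and 0.06 and 33 to 58 members below 0, and the median turned to 0.0065 without knockout STING library 1 and to 0.06 without knockout vector library 2.

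MRPS5 had the smallest p, with 62.7 and 49.2 FPKM with STING and 48.2 and 52.0 FPKM with vector in knockout cells beside the wild-type values given above. The STING and vector values of MRPS5 thus overlapped in knockout cells and stood apart in wild-type cells, and the difference of the effects was 0.70 on the log2 scale (SE 0.26, limma adjusted p = 0.966). MRPL22 and MRPL42 differed the other way, by -0.70 and -0.71 (SE 0.26 and 0.29). MRPS18C had 46.5 and 66.4 FPKM with STING and 79.9 and 96.5 FPKM with vector in knockout cells, against 141 and 145 FPKM with STING and 140 and 140 FPKM with vector in wild-type cells. Its difference was -0.68 (SE 0.30). MRPL27 (-0.46) and MRPS25 (0.57) complete the 6 with the smallest p, and all 6 had a limma adjusted p of 0.966. With STING, the polysome-fraction level of TMEM173 was lower in knockout than in wild-type cells, as given above. The part of that difference in these values was not tested.

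**Figure D4:**
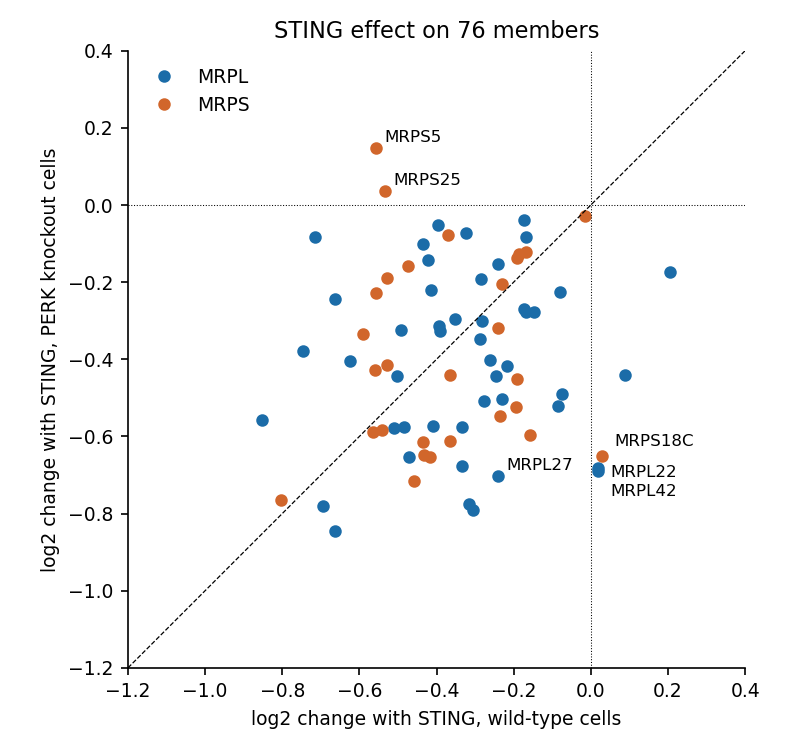
Change with STING (log2, STING minus vector) of the 76 mitochondrial ribosomal proteins in PERK knockout cells (vertical axis) against wild-type cells (horizontal axis), with equal changes on the dashed line and the 6 genes with the smallest p for the difference named. Of the points, 43 lie below the dashed line and 33 above it, and no difference passed the threshold.

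Genes named for their role showed no difference between genotypes that passed. MRPL12 had 342 and 363 FPKM with STING and 474 and 459 FPKM with vector in knockout cells, so that, as deposited, its STING values lay below its vector values in both genotypes and in the first experiment. MRPL40, which fell most in the first experiment, had 152 and 194 FPKM with STING against 254 and 288 FPKM with vector in knockout cells, and 262 and 280 FPKM with STING against 367 and 385 FPKM with vector in wild-type cells. The limma adjusted p of their STING effects in the knockout experiment were 0.704 and 0.483 in knockout cells and 0.384 and 0.384 in wild-type cells. MRPS16 (-0.58 in knockout and -0.54 in wild-type cells) and MRPS22 (-0.61 and -0.44) had log2 changes below 0 in both. MRPL3 had -0.38 and -0.75, MRPL44 -0.15 and -0.24, MRPS30 -0.08 and -0.37, MRPS36 -0.55 and -0.23, MRPS18A -0.61 and -0.37, and MRPS18B -0.14 and -0.19, none of which passed.

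Across the 3 STING comparisons, which share no control between the first experiment and the knockout experiment, 55 of 76 members had a log2 change below 0 in each and 0 had a log2 change above 0 in each, against 37.7% and 2.91% of the 8808 genes tested in both tables. Of the 52 members averaging 50 FPKM or more in both tables, 45 were below 0 in each, against 65.4% of genes at that level. In 26 members both STING values lay below both vector values in each comparison, against 7.63% of all genes, and 24 of these were among the 52, against 21.5%. These counts followed the scaling of both tables: with median-of-ratios scaling 20 members were below 0 in each, against 14.8% of genes, and 5 were lower without overlap, against 1.51%. With quantile normalization 15 members were below 0 in each, against 15.3%, and 4 were lower without overlap, against 1.45%. MRPL40, MRPL20, MRPL55, MRPL11, MRPL12, MRPS18A, MRPS11 and MRPS12 were among the 26 in the values as deposited. MRPL55 had 537 and 584 FPKM with STING against 1097 and 924 FPKM with vector in knockout cells, and 640 and 526 FPKM with STING against 1112 and 758 FPKM with vector in wild-type cells. MRPL20 had 257 and 225 FPKM with STING against 375 and 343 FPKM with vector in knockout cells, and 315 and 287 FPKM with STING against 427 and 374 FPKM with vector in wild-type cells.

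The last comparison sets PERK knockout against wild-type cells with vector, and it shares its libraries with the STING comparisons of those cells. With limma 0 of 76 members passed, against 0.0163% lower and 0.0326% higher among all genes. At an unadjusted p under 0.05, 20 members were lower and 1 higher, against 7.99% and 4.38% of all genes. Knockout cells were lower without overlap in 41 members and higher in 2, against 25.8% and 12.5% of all genes, and of the 57 abundant members 30 were lower, against 26.8%. The median log2 change was -0.33 for the members, -0.32 for the MRPL and -0.34 for the MRPS, beside -0.09 for all genes. With median-of-ratios scaling the members' median was -0.16 and with quantile normalization -0.22. The 20 lower members became 5 without knockout vector library 1, 8 without wild-type vector library 1 and 8 without wild-type vector library 2. Cytosolic ribosomal proteins had a median of 0.38, and complex I subunits of -0.02.

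MRPL18 stood nearest the threshold, with 164 and 205 FPKM in knockout cells, against 444 and 426 FPKM in wild-type cells (log2 change -1.24, SE 0.19, limma adjusted p = 0.0708). It passed when the fit held only genes averaging at least 5 FPKM (limma adjusted p = 0.0260) or at least 50 FPKM (0.0171) and with quantile normalization (0.0474). With replicate number added to the fit (a replicate block) MRPL18 passed too, as did MRPL1. MRPL1, the counterpart of the bacterial stalk protein L1, had 13.4 and 20.8 FPKM in knockout cells, against 35.0 and 44.4 FPKM in wild-type cells (log2 change -1.19, limma adjusted p = 0.176). MRPL32, whose precursor is processed by the m-AAA protease, had 184 and 247 FPKM in knockout cells, against 399 and 349 FPKM in wild-type cells. These 3 were below the wild-type values without overlap. MRPS18A had 108 and 111 FPKM in knockout cells, against 197 and 159 FPKM in wild-type cells. MRPS10 had 34.7 and 46.8 FPKM in knockout cells, against 61.6 and 75.3 FPKM in wild-type cells. MRPS18C, with the values given above, completed the 6 with the smallest p, and the limma adjusted p of the last 4 lay between 0.215 and 0.285.

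MRPS21 went the other way, a gene singled out after its values were seen. It had 1792 and 1374 FPKM in knockout cells with vector, against 1142 and 860 FPKM in wild-type cells with vector (log2 change 0.66, SE 0.23, limma adjusted p = 0.325). MRPS21 passed as higher only with the replicate block. With STING it had 1094 and 917 FPKM in knockout cells, against 827 and 651 FPKM in wild-type cells. As the highest of the 76 in that table, MRPS21 weighs on any sum over the MRPS.

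The ratio of the summed MRPL level to the summed MRPS level describes the balance of the 2 sets in a library. In the first experiment it was 1.88 and 1.77 with STING, against 2.05 and 1.99 with vector. In knockout cells it was 1.58 and 1.58 with STING, against 1.66 and 1.65 with vector, and in wild-type cells 1.92 and 1.92 with STING, against 1.97 and 1.88 with vector. The knockout ratios of sums lay below all wild-type ratios of sums. Without the 3 highest members of that table, MRPS21, MRPL55 and MRPS24, the knockout ratios ran between 2.38 and 2.84 and the wild-type ratios between 2.43 and 2.76, so the groups overlapped. In the first experiment the STING ratios stayed below the vector ratios without its 3 highest members, MRPL55, MRPS24 and MRPL12, at 1.86 and 1.77 with STING against 1.96 and 1.97 with vector. The ratio of the median MRPL level to the median MRPS level ordered the libraries otherwise. In knockout cells it was 1.32 and 1.31 with STING, against 0.998 and 1.08 with vector. In wild-type cells it was 1.13 and 1.24 with STING, against 1.12 and 1.19 with vector. In the first experiment it was 1.35 and 1.42 with STING, against 1.44 and 1.35 with vector. The ratios are given as a description, with no test.

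**Figure D5:**
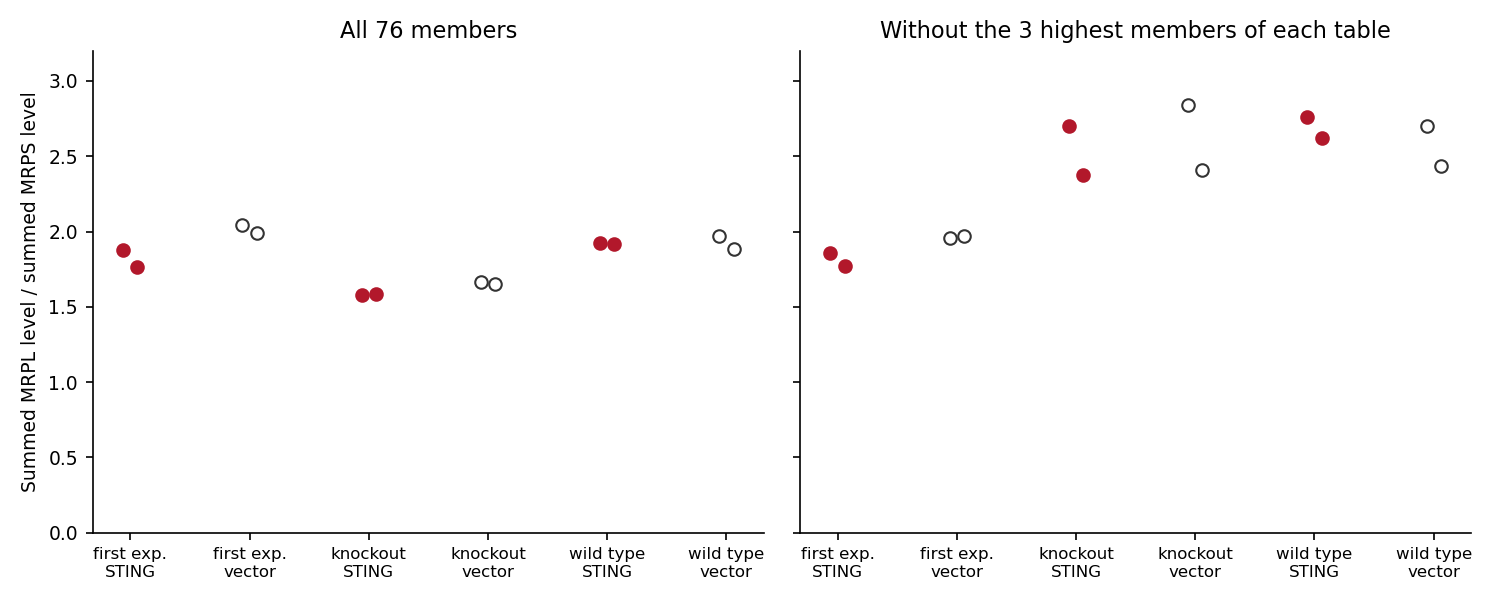
Summed MRPL level divided by summed MRPS level in each of the 12 libraries (axis from 0, no unit), over all 76 members (left) and without the 3 highest members of each table (right), with STING filled and vector open. The knockout libraries lie at 1.58 to 1.66 on the left, below the wild-type libraries at 1.88 to 1.97, and overlap with them on the right.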

How the data were processed

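Polysome-fraction RNA was copied by Smart-seq2 with 12 to 14 cycles of amplification, per the labels' protocols, and the submitters' processing notes name TopHat2 2.1.1, Cufflinks 2.2.1 and genome build hg19. The first experiment's values are FPKM per the deposited file; the knockout table names no unit, and its deposited values were read as FPKM with those under 1 set to 1. Neither table gives counts, so the depth is unknown; steps among low values put the libraries' relative depth between 0.885 and 1 in the first experiment and, with weak peaks, between 0.822 and 1.14 in the knockout experiment. No spike-in entries were used.

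Values were used as deposited, as log2(FPKM + 1), keeping genes that averaged 1 or more across a table's libraries. Each table was fitted on its own with limma 3.58.1 in R 4.3.3 (group means, intensity trend, robust eBayes, two-sided, Benjamini-Hochberg over all genes at 0.05), after checks on simulated data. A change on this scale understates that of low genes. Median-of-ratios scaling, quantile normalization, other filters and pseudocounts, plain eBayes, a replicate block, compared groups fitted alone and left-out libraries were tried. Lengths and overlaps are from GENCODE 29, and promoters from RefSeq.

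Named are up to 8 called members per comparison by size of change, the 6 smallest p where fewer passed, the 3 highest and lowest levels per subunit, and genes listed for their role. The members and lists were chosen with earlier results of these data known.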

Additional observations from a re-analysis of the deposited data

How the results depend on the processing

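With median-of-ratios scaling 12 members passed in the first experiment, 12 without a filter on low values, 0 without trend and robust estimation and 5 with quantile normalization, 3 lower and 2 higher; leaving out a library gave 0 to 14. The median of the members minus that of all genes there was -0.126 with a mean of at least 5, 0.0052 with at least 50 (an alternative chosen after seeing the data) and 0.0445 with quantile normalization (-0.227 to -0.128 leaving out a library), and MRPL minus MRPS was 0.0128 with at least 50 (-0.125 to -0.0315). In knockout cells the first of these was -0.215 with at least 5, -0.174 with at least 50, -0.230 with median-of-ratios scaling and -0.146 with quantile normalization (-0.354 to -0.243), and MRPL minus MRPS ran between -0.0884 and 0.0533. In wild-type cells it was 0.0401 with median-of-ratios scaling (-0.188 to 0.0166), and MRPL minus MRPS ran between 0.0146 and 0.102. For the difference between genotypes these ran between -0.277 and -0.102 and between -0.236 and 0.0166. For knockout against wild-type cells with vector, 1 member passed with at least 5, 1 with at least 50, 1 with quantile normalization and 3 with a replicate block (MRPL1 and MRPL18 lower, MRPS21 higher), and the first difference ran between -0.354 and -0.205. Changes of sign with median-of-ratios scaling and quantile normalization, in that order, were 0.021 and 0.18 for MRPS30 in the first experiment, 0.026 and 0.015 for MRPL44, 0.050 and 0.10 for MRPS18B and 0.11 and 0.12 for MRPS30 in knockout cells, and 0.13 and 0.13 for MRPL44, 0.20 and 0.15 for MRPS18B, 0.011 and 0.019 for MRPS30 and 0.15 and 0.16 for MRPS36 in wild-type cells. MRPS16 (0.0088) and MRPS18B (0.33) changed sign with quantile normalization in the first experiment, and MRPS18A (0.022) with median-of-ratios scaling in wild-type cells. Leaving out a library, MRPS18C ran between -0.0052 and 0.38, MRPS30 between -0.17 and 0.094 and MRPS36 between -0.037 and 0.29 in the first experiment, and MRPL3 between -0.96 and 0.20, MRPL44 between -0.55 and 0.24, MRPS18B between -0.36 and 0.091 and MRPS30 between -0.48 and 0.33 in knockout cells. The cause of these changes was not tested. Replicate numbers were not taken as pairing, because not every correlation between deviations of same-numbered libraries was over 0.1: it was 0.0741 in the first experiment and 0.0421 to 0.528 in the knockout experiment, where 5 of 6 were over 0.1. Over the members alone these 6 were 0.222 to 0.714, and the value in the first experiment was 0.377. The fits without a block left these shared deviations in the spread. With the replicate block 24 members passed in the first experiment and 0 in knockout cells, in wild-type cells and for the difference between them. At an unadjusted p under 0.05 the block gave 37 lower members in the first experiment, 37 in knockout cells and 32 in wild-type cells. It gave 30 for knockout against wild-type cells with vector and 6 for the difference between genotypes. A group reduced to 1 library was assumed to vary like the others.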
